A study of Mus musculus with 58 samples.

Results

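CD4+ T cells from mice that carry extra copies of the miR-17~92 microRNA cluster were compared between 48 h and 24 h of weak stimulation. The comparison takes 16 of the 58 RNA-seq libraries of the series: 8 libraries at 48 h against 8 at 24 h, each set holding 4 libraries of a weak and 4 of a very weak stimulus. These transgenic cells (TG; CD4cre.Rosa26loxSTOPloxCAG-miR-17~92Tg, T1792 tg/tg) express Cre from Cd4 control sequences, so that a CAG-driven copy of the cluster in the Rosa26 locus is freed of its stop cassette. A kit was used to purify naive CD4+ T cells from lymph nodes and spleens pooled from 10 mice of both sexes, whose age the labels do not give. They were plated on anti-CD28 (0.2 µg/ml) with anti-CD3 at 0.25 µg/ml (very weak) or 0.5 µg/ml (weak), in IL-2 at 50 U/ml. Wild-type cells (WT) and cells in which the same Cre deletes the cluster (KO; CD4cre.miR-17~92 lox/lox) received the same treatment, with 16 stimulated libraries each, and are used below to ask where the change over time differed. WT cells carry no Cre, so a difference between TG and WT cells cannot be told apart from an effect of Cre. All 24028 genes of the table were considered, of which 12274 had enough counts to be tested.

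A naive CD4+ T cell that meets its antigen receives 2 signals, one through the T cell receptor, mimicked here by anti-CD3, and one through CD28. It leaves quiescence within a day, enlarges, and then divides repeatedly while it raises glycolysis and lipid synthesis and begins to make cytokines. MicroRNAs of the miR-17~92 cluster are induced in this process and lower the levels of messenger RNAs that hold a match to their seed, bases 2 to 8, in the 3′ untranslated region. Known targets include brakes on PI3K signalling such as Phlpp1 and the death-inducing protein Bim (Bcl2l11). The mature sequences of the cluster, from RefSeq (GRCm38.p6, chromosome 14, plus strand), are shown with the seed in capitals, because it is the seeds that define which messages the extra copies can act on.
mmu-miR-17-5p: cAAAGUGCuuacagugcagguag
mmu-miR-20a-5p: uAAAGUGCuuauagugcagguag
mmu-miR-18a-5p: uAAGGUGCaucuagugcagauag
mmu-miR-19a-3p: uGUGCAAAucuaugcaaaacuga
mmu-miR-19b-3p: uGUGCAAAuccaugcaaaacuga
mmu-miR-92a-3p: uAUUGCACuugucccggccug
The 6 microRNAs share 4 seeds. miR-17-5p and miR-20a-5p have the same seed, as do miR-19a-3p and miR-19b-3p.

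The 16 TG libraries had total counts between 19.28 and 20.6 M, at similar depth at both times. The first principal component of the stimulated TG libraries carried 66.1% of the variance. The libraries followed their genotype labels: Gt(ROSA)26Sor, the transcript of the locus that the transgene interrupts, stayed at or below 0.157 CPM (counts relative to the scaled library total, in parts per M) in every stimulated TG library and ran from 2.98 to 7.3 CPM in the stimulated WT libraries. Markers of CD4+ T cells (Cd3d, Cd3e, Cd3g, Cd4, Cd5, Thy1 and Cd28) summed to 2319 to 2900 CPM in every TG library at both times. Markers of B cells summed to 28.5 to 117 CPM and those of myeloid cells to 8.87 to 16.3 CPM in these libraries. Replicate 2 was the highest of the 4 in 14 of the 15 largest rises at 48 h under the weak stimulus and in 10 of the 15 under the very weak one. Replicate number was kept in the model as a block, although the labels do not say that equal numbers mark the same mice. Nor do they say that replicates were separate cultures, so p-values measure the spread between these libraries.

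Of the cluster's own transcripts Mir18 passed the test and the host transcript Mir17hg changed in opposite directions in the 2 pairs of replicates. Mir17, counted over its hairpin, lay at 0.315, 0.588 and 0.941 CPM (lowest, median, highest) in the 8 libraries at 24 h and at 0.102, 0.18 and 0.819 CPM at 48 h, against 3.44 to 9.65 CPM in naive TG cells. Its log2 change of -0.80 ± 0.39 (SE) did not pass (edgeR's quasi-likelihood test, adjusted p = 0.0806). Mir18 fell by 0.77 ± 0.29 on the log2 scale (adjusted p = 0.0279), a call lost with DESeq2 (adjusted p = 0.0586). The host transcript Mir17hg ranged from 22.2 to 65.7 CPM at 24 h and from 20.5 to 49.5 CPM at 48 h, and the groups overlapped. Its change was -0.22 (adjusted p = 0.36), but it was -0.85 in replicates 1 and 2 alone (adjusted p = 0.000234) and 0.41 in replicates 3 and 4 alone (adjusted p = 0.0353). In replicate 3 at 24 h it was low under both stimuli, and WT replicate 3 was low there as well, at 18.3 and 20.5 CPM. Poly(A) libraries do not measure the mature microRNAs.

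Between 24 h and 48 h 8127 of the 12274 tested genes changed in TG cells (66.2% at an adjusted p under 0.05). Of these, 4075 rose (33.2%) and 4052 fell (33%). A change of at least 2-fold was less frequent and mostly upward, with 1393 genes (11.3%), of which 1113 rose and 280 fell. The median change over all tested genes was 0.00 on the log2 scale. In 3184 genes (25.9%) the 8 libraries at 48 h did not overlap the 8 at 24 h, with 1661 higher and 1523 lower at 48 h. The test counts the libraries of both stimuli separately, although those of equal replicate number and time shared deviations. With counts summed over the stimuli for each replicate number and time, 6700 genes passed.

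The changes were alike under both stimuli in direction. Under the weak stimulus 6753 genes passed (55%) and under the very weak stimulus 6137 (50%), and all 5418 genes that passed under both moved in the same direction. The test of the difference between the stimuli called no gene (0%), and its smallest adjusted p was 0.9997. At an unadjusted p under 0.05 it had 277 of the 12274 genes, and DESeq2 called none. That is fewer genes than a p under 0.05 gives when no gene differs. The test was thus conservative here, and its 0 calls do not show that the changes were equal. Across genes the changes under the 2 stimuli had a Pearson r of 0.94, where genes are not independent replicates. Changes below are the mean of both stimuli. The plot of weak against very weak changes shows the genes along the line of equal change.

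**Figure D1:**
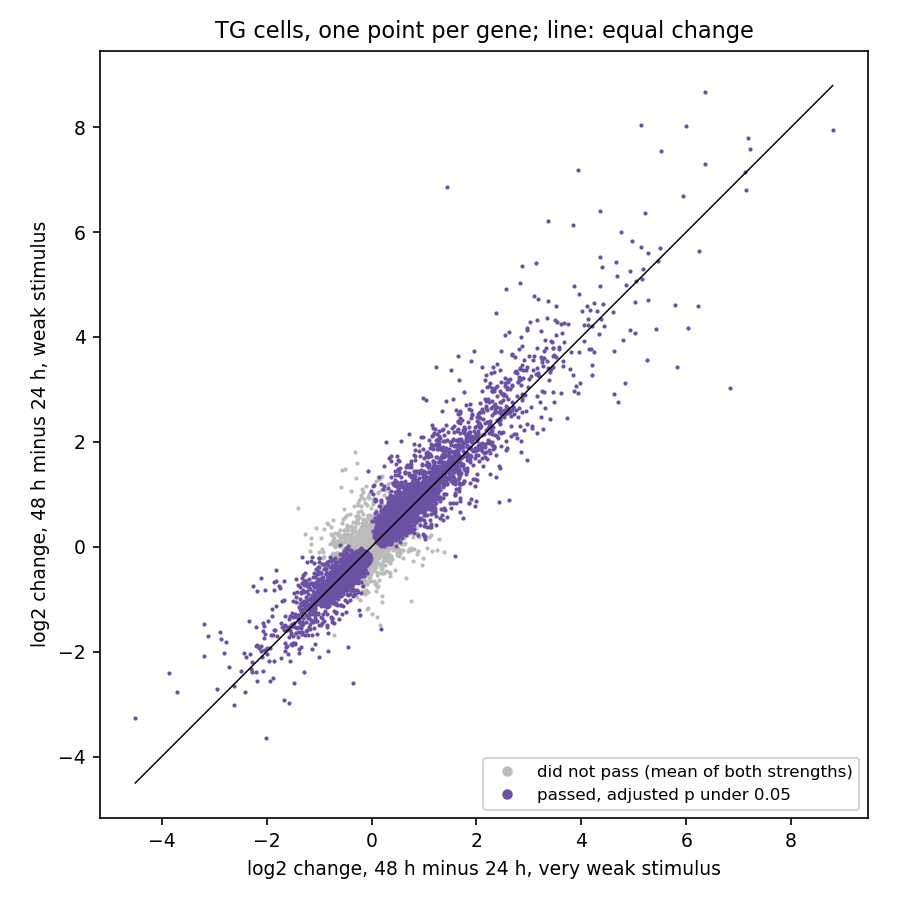
Log2 change from 24 h to 48 h in TG cells under the very weak (x axis) and weak (y axis) stimulus, with 1 point for each of the 12274 tested genes. Purple points passed the test of the mean change (8127 genes), grey points did not. The points follow the line of equal change, and the test of the difference between stimuli called 0 genes.

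The largest rises among genes that averaged at least 5 CPM in a group came from genes that were low at 24 h. Tgm2, which codes for the protein-crosslinking enzyme transglutaminase 2, lay at 2.2, 2.81 and 6.19 CPM (lowest, median, highest of 8) at 24 h and at 160, 623 and 1511 CPM at 48 h, a log2 change of 7.40 ± 0.22 (SE, adjusted p = 5.8e-13). The groups did not overlap, and naive TG cells held 7.56 to 21.8 CPM. Vldlr, a receptor for triglyceride-rich lipoproteins, went from at most 0.249 CPM to between 8.08 and 32.2 CPM (7.49 ± 0.27). Dgkk, a diacylglycerol kinase, went from at most 0.252 CPM to between 5.37 and 12.6 CPM (7.13 ± 0.32). The 24 h values of these rest on few reads, 16 counts over 8 libraries for Vldlr and 9 for Dgkk, which limits the precision of these changes.

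Several secreted factors were among the 15 largest rises. Il24, a cytokine of the IL-10 family, lay at 0.152, 0.306 and 1.67 CPM at 24 h and at 6.23, 44.5 and 196 CPM at 48 h (6.97 ± 0.23). Its 48 h libraries were widely spread, with replicate 2 highest and replicate 3 lowest under both stimuli. Inhba, the subunit of activin A, rose by 5.24 ± 0.24 to a median of 9.19 CPM, and Tgfb3, a transforming growth factor beta, by 5.38 ± 0.27 to a median of 10.8 CPM. Stc2, the secreted glycoprotein stanniocalcin 2, went from 0.606 to 1.6 CPM at 24 h to 26.3 to 58.8 CPM at 48 h (4.91 ± 0.13). The rest of the 15 were Smtnl2, the laminin receptor subunit Itga7, Kremen2, Mgarp, the small GTPase Rnd3, the adaptor Bcar1, Osr2 and the glutamate transporter Slc17a6, with changes between 4.53 (Slc17a6) and 5.93 (Smtnl2). In naive TG cells Itga7 stood at 3.64 to 5.01 CPM and Tgfb3 at 2.73 to 4.44 CPM, above their 24 h levels.

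**Figure D2:**
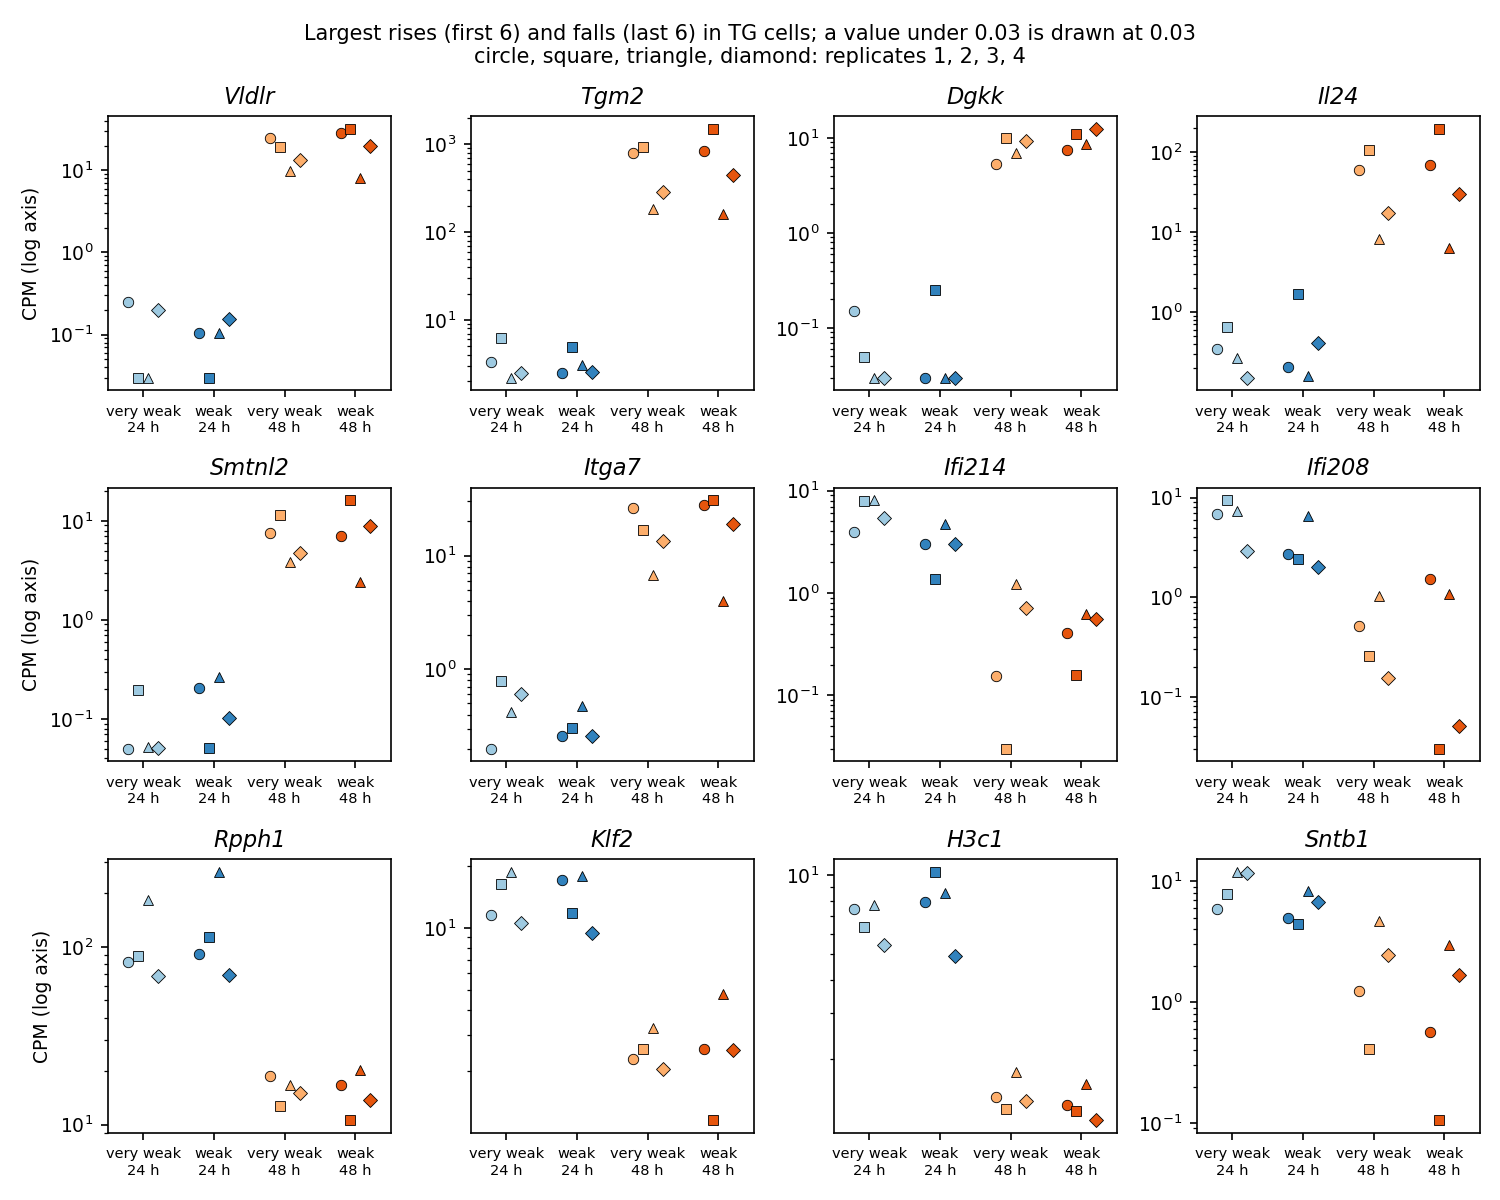
CPM (log axis) of the 6 largest rises and the 6 largest falls in TG cells, with 1 point per library, 4 groups of stimulus and time, and marker shapes for replicates 1 to 4. For Tgm2 all 8 libraries at 48 h (160 to 1511 CPM) lie above all 8 at 24 h (2.2 to 6.19 CPM). Klf2 lies between 9.48 and 18.8 CPM at 24 h and between 1.16 and 4.79 CPM at 48 h.

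The largest falls held interferon-inducible genes of the PYHIN family, which includes sensors of DNA, and genes of resting or regulatory T cells. Ifi214 lay at 1.36, 4.33 and 8.08 CPM at 24 h and at 0, 0.483 and 1.22 CPM at 48 h, a log2 change of -3.24 ± 0.33 (adjusted p = 3.1e-07) after 68 to 83.7 CPM in naive TG cells. Ifi208 (-3.13 ± 0.37) and Ifi209 (-2.30 ± 0.25) followed the same course. Klf2, a transcription factor that holds T cells quiescent, was at 9.48, 14.1 and 18.8 CPM at 24 h and at 1.16, 2.54 and 4.79 CPM at 48 h (-2.43 ± 0.16), after 365 to 666 CPM in naive cells. Foxp3, the defining factor of regulatory T cells, fell by 1.996 ± 0.18 from a median of 6.95 to 1.8 CPM, with no overlap. In bulk RNA fewer cells of a type and less RNA per cell cannot be told apart.

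Rpph1, the RNA subunit of ribonuclease P, fell by 2.81 ± 0.16, from 68.5 to 265 CPM at 24 h to 10.6 to 20.4 CPM at 48 h. This RNA has no poly(A) tail, so its counts in poly(A) libraries are a partial measure. The histone gene H3c1 fell by 2.37 ± 0.13. Xcl1, the chemokine lymphotactin, fell by 1.97 ± 0.27, but its groups overlapped because replicate 3 under the weak stimulus stayed at 35.7 CPM at 48 h. The rest of the 15 were Sntb1, Zcwpw1, Il1a, the neuropeptide receptor Vipr1, Pacsin1, Rnf144a and Alpl, between -2.33 (Sntb1) and -1.92 (Alpl).

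Genes of the response to low oxygen rose as a group. In that response the factors HIF-1α and HIF-2α bind short DNA elements and switch on glycolysis, iron and oxygen handling and mitophagy. All 24 listed hypoxia-response genes were tested and all 24 rose, with a median log2 change of 1.66 against 0.00 over all tested genes. Of all tested genes 33.2% rose and 33% fell, and the counts of every gene list are to be read against these shares. Bnip3, a mitophagy receptor, lay at 7.3, 9.6 and 11.3 CPM at 24 h and at 59.5, 116 and 169 CPM at 48 h (3.57 ± 0.12, adjusted p = 7.4e-13). P4ha2, a collagen prolyl hydroxylase, went from 1.14, 2.21 and 3.46 CPM to 25.1, 44.2 and 84.8 CPM (4.21 ± 0.18). Neither gene's groups overlapped. Epas1, which codes for HIF-2α itself, rose by 3.98 ± 0.13 and Ndrg1 by 3.56 ± 0.14, whereas Hif1a rose by 0.53 ± 0.07 and its partner Arnt by 0.28 ± 0.06. The oxygen sensor Egln3 rose by 2.44 ± 0.13 and the angiogenic factor Vegfa by 1.61 ± 0.10. The median of the list was 1.64 in WT cells and 1.26 in KO cells.

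Glycolysis moved in the same direction: 22 of 24 listed genes rose, against 33.2% of all tested genes, and none fell (median 0.82). The lactate exporter Slc16a3 rose by 3.41 ± 0.09, the glucose transporter Slc2a3 by 3.55 ± 0.17, Pgk1 by 1.25 ± 0.05 and Tpi1 by 1.39 ± 0.07. Slc2a1, the main glucose transporter of activated T cells, rose by 1.40 ± 0.09. Slc16a1, which carries lactate and pyruvate, had a change of -0.11 (adjusted p = 0.12) and the isoenzyme Eno2 one of 0.18 (adjusted p = 0.23). The respiratory chain showed no such shift, with 10 of 36 genes higher and 4 lower, against 33.2% and 33% of all tested genes. Its median was 0.005 in TG, -0.09 in WT and -0.22 in KO cells. The change was higher than in KO cells for 19 of the 36 and lower for none, where 25.8% of all tested genes differed.

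Promoters from RefSeq (GRCm38.p6, 250 bases before to 50 after each start) were searched for the core of the hypoxia response element, ACGTG or GCGTG, on both strands. A window was given for 19 of the 24 hypoxia-response genes and all 19 held a match, against 67.9% of the 9766 tested genes with a window and 43.8% of all 32851 windows. Among genes that rose at least 2-fold the share was 60.2%. The windows of the pair with the smallest adjusted p that hold a match are shown with the matches in capitals. Bnip3 lies on the minus strand at chr7:138909457-138909756 and P4ha2 on the plus strand at chr11:54100674-54100973.
Bnip3: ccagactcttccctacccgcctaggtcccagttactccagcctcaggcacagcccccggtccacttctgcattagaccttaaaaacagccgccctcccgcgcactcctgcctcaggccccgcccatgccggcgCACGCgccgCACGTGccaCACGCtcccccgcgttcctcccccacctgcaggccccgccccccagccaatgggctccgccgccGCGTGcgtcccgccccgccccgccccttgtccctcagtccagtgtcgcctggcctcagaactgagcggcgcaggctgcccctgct
P4ha2: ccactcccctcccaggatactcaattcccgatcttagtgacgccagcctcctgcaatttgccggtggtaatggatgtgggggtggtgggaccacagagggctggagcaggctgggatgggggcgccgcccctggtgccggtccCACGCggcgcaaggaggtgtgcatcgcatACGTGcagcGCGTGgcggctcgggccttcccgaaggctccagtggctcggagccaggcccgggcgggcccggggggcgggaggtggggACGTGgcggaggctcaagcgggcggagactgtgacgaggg
A match describes the letters of the window and does not show that a factor binds there.

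Lipid synthesis also rose. All 23 tested genes of cholesterol biosynthesis and uptake rose (24 were listed), with a median of 0.98. Hmgcs1, which makes the precursor of mevalonate, went from 144, 177 and 216 CPM to 296, 406 and 466 CPM (1.11 ± 0.07), and Sqle, the squalene epoxidase, from 95.8, 104 and 119 CPM to 172, 183 and 198 CPM (0.81 ± 0.05). The groups of both genes were apart. Msmo1 rose by 1.496 ± 0.06, Fdft1 by 1.08 ± 0.05 and the sterol carrier Stard4 by 1.24 ± 0.05. The median was 0.91 in WT and 0.85 in KO cells. The promoter windows were also searched for an exact form of the sterol regulatory element. It was found in 0 of the 16 cholesterol genes with a window, against 0.0512% of tested genes with one. A form this rare cannot show whether these genes carry such elements, and other forms were not searched. The CCAAT box was found in all 16, against 43.5% of tested genes. Of 15 tested genes of fatty acid synthesis 12 rose and 2 fell. The desaturases led them, with Scd1 at 4.24 ± 0.10, Fads2 at 3.28 ± 0.12 and Scd2 at 2.43 ± 0.10, while the first enzymes of the chain, Acaca (-0.32 ± 0.08) and Fasn (-0.37 ± 0.12), were those that fell.

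Genes of mitosis rose and most genes of DNA replication fell. Of 36 listed genes of mitosis 34 rose, against 33.2% of all tested genes, and none fell (median 0.84). Ccnb2, a mitotic cyclin, lay at 11.5, 17.9 and 23.3 CPM at 24 h and at 88.8, 98.6 and 107 CPM at 48 h (2.50 ± 0.09, adjusted p = 2e-12), and the groups did not overlap. Cdc20, the activator of the anaphase-promoting complex, rose by 1.52 ± 0.06, its ubiquitin-conjugating enzyme Ube2c by 1.39 ± 0.06 and the mitotic kinase Plk1 by 1.28 ± 0.05. Of 38 genes of DNA replication 30 fell and 4 rose (median -0.29). Mcm7, a subunit of the replicative helicase, went from 511, 570 and 623 CPM to 364, 403 and 445 CPM (-0.50 ± 0.04), again without overlap. All 6 subunits of that helicase, Mcm2 to Mcm7, fell by between 0.48 and 0.53. Tk1 (0.63 ± 0.05), Orc1 (0.27 ± 0.05), Rrm2 and Rrm1 rose. The replication genes had a median of -0.37 in WT and -0.47 in KO cells.

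Of 11 tested CDK inhibitors and relatives of the retinoblastoma protein 9 rose, against 33.2% of all tested genes, and none fell. Cdkn1a, which codes for p21, lay at 29.7, 44.6 and 110 CPM at 24 h and at 127, 181 and 374 CPM at 48 h (1.93 ± 0.21), and Cdkn2d rose by 1.71 ± 0.11. Of the G1 cyclins and E2F factors 5 of 19 rose and 11 fell, with E2f1 at -0.80 ± 0.07 and E2f6 at -0.80 ± 0.06.

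The same promoter windows were also searched for 2 elements known from cell cycle genes. The cell cycle genes homology region, TTTGAA or TTCGAA on either strand, was found in 23 of the 28 mitosis genes with a window (82.1%), against 16.5% of tested genes with one. E2F elements (TTTCCCGC, TTTGGCGC, TTTCGCGC or TTTGCCGC on either strand) were found in 13 of 32 replication genes (40.6%) against 4.97%. In mitosis genes the E2F share was 3.57%, and in replication genes the homology region stood at 18.8%. The CCAAT box stood at 85.7% in mitosis genes and 59.4% in replication genes, against 43.5% of tested genes with a window. Ccnb2 (minus strand, chr9:70421505-70421804) and Mcm7 (minus strand, chr5:138171834-138172133) are shown as the members with the smallest adjusted p that hold a match to each, in capitals.
Ccnb2: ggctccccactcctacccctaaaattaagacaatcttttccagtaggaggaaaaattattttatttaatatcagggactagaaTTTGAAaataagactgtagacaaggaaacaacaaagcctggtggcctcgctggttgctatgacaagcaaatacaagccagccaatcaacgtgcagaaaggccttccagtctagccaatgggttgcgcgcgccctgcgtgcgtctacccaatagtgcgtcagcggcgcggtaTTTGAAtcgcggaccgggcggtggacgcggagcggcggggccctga
Mcm7: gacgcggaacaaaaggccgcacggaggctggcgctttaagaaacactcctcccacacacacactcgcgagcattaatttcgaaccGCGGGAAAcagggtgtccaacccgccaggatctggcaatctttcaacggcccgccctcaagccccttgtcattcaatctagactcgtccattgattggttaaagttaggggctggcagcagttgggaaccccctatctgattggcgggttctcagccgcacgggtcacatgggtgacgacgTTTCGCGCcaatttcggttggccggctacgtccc

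Ribosome biogenesis, which peaks early in T cell growth, fell. Of 36 listed genes 33 fell, against 33% of all tested genes, and none rose (median -0.45), among them the RNA polymerase I subunit Polr1b (-0.80 ± 0.06), Mybbp1a (-0.72 ± 0.06), Noc2l (-0.64 ± 0.05) and Nop16 (-0.55 ± 0.04). The median was -0.53 in WT and -0.55 in KO cells. The ribosomal proteins themselves did not share this course, with 4 of 46 higher, 4 lower and a median of 0.05. Myc, which drives ribosome production, fell by 0.22 ± 0.06, its partner Max fell by 0.71 ± 0.05, and the antagonists Mxi1 (1.92 ± 0.11) and Mxd4 (0.73 ± 0.13) rose. Of the 11 tested genes of the MYC network list 4 rose and 4 fell (median 0.09). Both shares were near those of all tested genes, 33.2% and 33%.

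**Figure D3:**
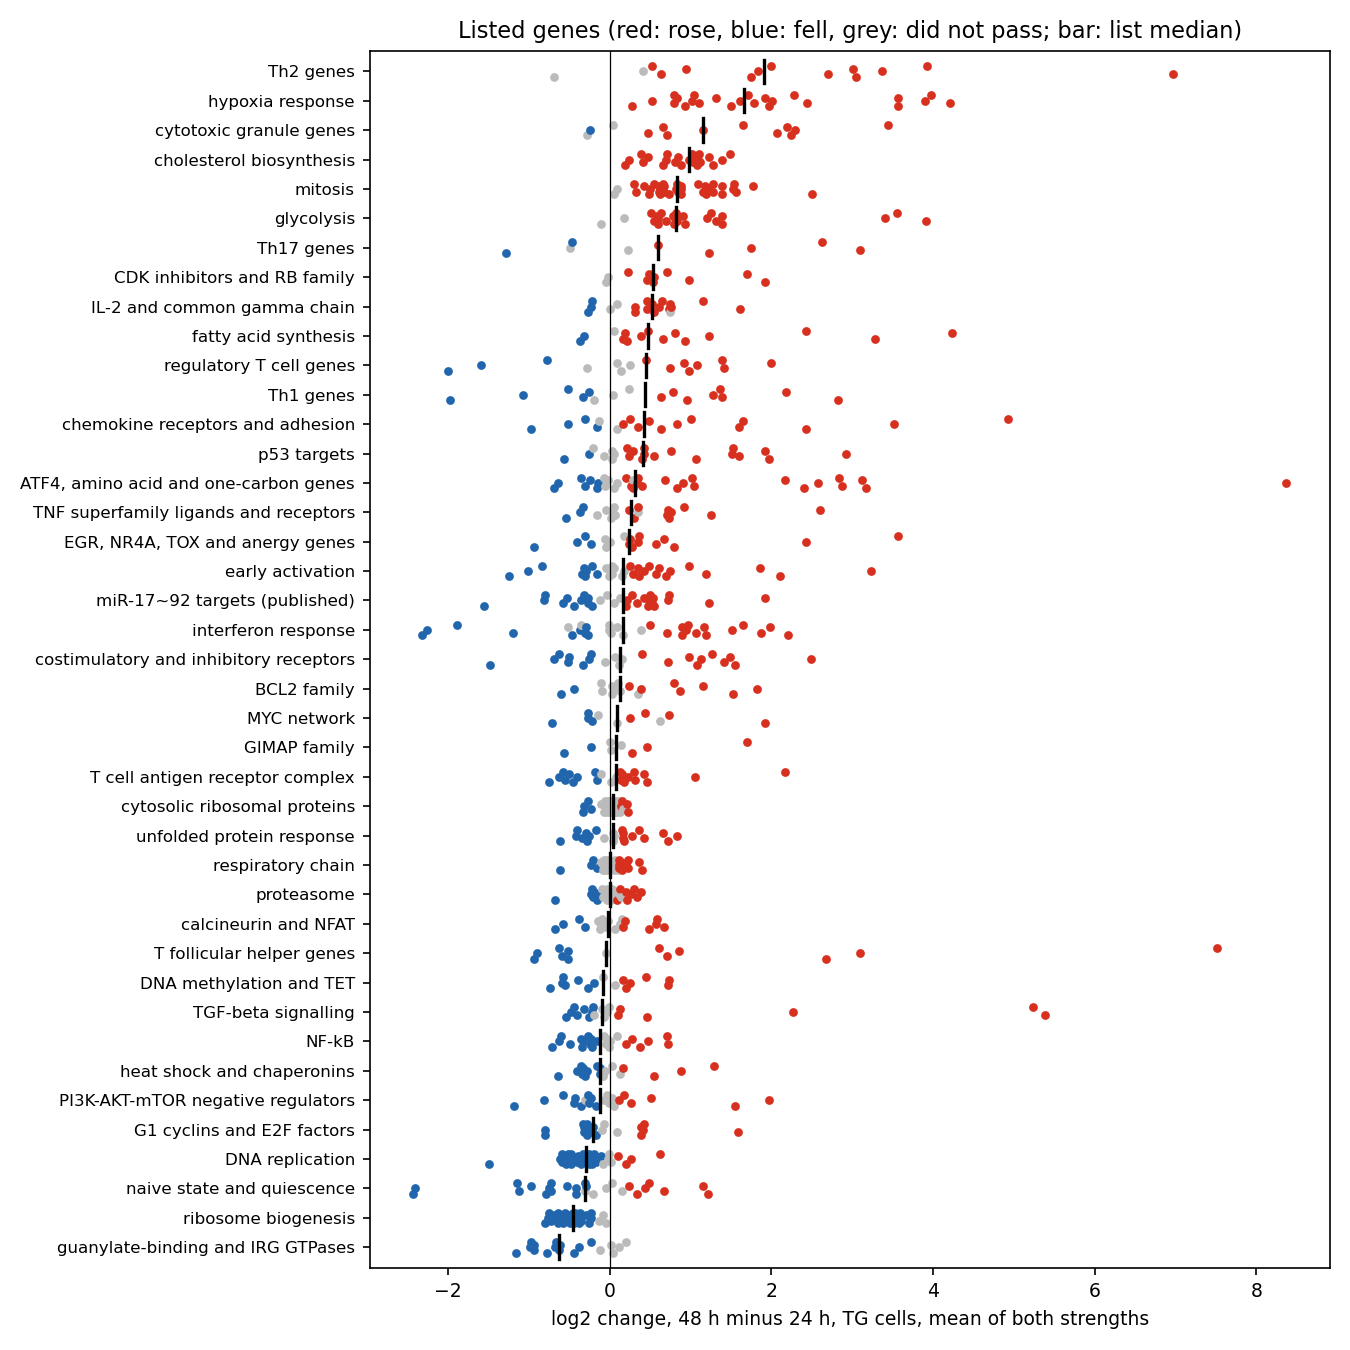
Log2 change from 24 h to 48 h in TG cells (x axis, mean of both stimuli) for every tested member of the 41 gene lists (rows, ordered by their median, marked with a bar). Red members rose, blue members fell and grey members did not pass. The hypoxia list has its 24 members to the right of 0, and ribosome biogenesis has 33 of 36 members that fell.

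Genes of T helper 2 cells rose. Of 14 tested genes of that list (16 were listed) 12 rose, against 33.2% of all tested genes, and none fell, with a median of 1.92. Il4, the signature cytokine, lay at 0.682, 1.78 and 3.23 CPM at 24 h and at 8.08, 19.1 and 29.3 CPM at 48 h (3.36 ± 0.16). Il13 went from 1.84, 3.75 and 7.67 CPM to 9.42, 20.4 and 232 CPM (3.05 ± 0.30). Gata3, the factor that directs this lineage, went from 19.6, 24.9 and 37.1 CPM to 46.3, 89.6 and 119 CPM (1.75 ± 0.09). None of the 3 had overlapping groups, although Il13 was spread widely at 48 h. Csf2 rose by 3.93 ± 0.17, the chemokine receptor Ccr8 by 1.83 ± 0.07 and Il10 by 1.995 ± 0.29. Il9 had a change of 0.42 (adjusted p = 0.38). The list's median was 0.85 in WT and 1.07 in KO cells, and the rise was larger in TG than in WT cells for Gata3, Il10, Ccr8 and Maf (4 of 14, against 6.68% of all tested genes that differed in either direction). Over all genes such calls against WT cells went from 858 to 227 without the replicate block, and to 100 in replicates 3 and 4 alone. For these 4 genes the fits under those settings are not reported here.

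The lists of other lineages held members that rose and members that fell. Of 16 T helper 1 genes 8 rose and 5 fell, against 33.2% and 33% of all tested genes. The share that fell was near the background. Ifng rose by 1.36 ± 0.22 and Il12rb2 by 2.18 ± 0.13. Tbx21, which codes for T-bet, fell by 0.32 ± 0.08 and its relative Eomes by 1.07 ± 0.15. The list's median was 0.44 in TG, 1.03 in WT and 1.40 in KO cells. The change was lower than in WT cells for 9 of the 16 and higher for none. Against KO cells 10 were lower and 1 higher. Of all tested genes 6.68% differed from WT and 25.8% from KO cells. These genotype counts come from the fit with the replicate block. Among T helper 17 genes Il21 (3.10 ± 0.15), Il22 and Rora rose. Of 13 genes of the follicular helper list 6 rose and 6 fell, with Il21 and Cxcl13 (7.52 ± 0.45) higher and Bcl6, Pdcd1, Icos and Tox lower. Cxcl13 averaged below 5 CPM in every stimulated TG group, so the size of its change rests on low counts.

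Of 13 tested cytotoxic granule genes 10 rose and 1 fell (median 1.16). Gzmb, the protease granzyme B, lay at 114, 149 and 273 CPM at 24 h and at 1034, 1645 and 4289 CPM at 48 h (3.44 ± 0.11). Nkg7 rose by 2.20 ± 0.11, Serpinb6b by 1.65 ± 0.09 and the perforin gene Prf1 by 1.16 ± 0.18, with overlapping groups for Prf1. The 11 markers of NK and innate lymphoid cells summed to 19.9 to 40.4 CPM at 24 h and to 33 to 45.8 CPM at 48 h. Of the 4 that could be tested Klrk1, Klrd1 and Gzma rose and Eomes fell, and the other 7, Ncr1 and Klrb1c among them, were too low to test. Their part in the result was not tested.

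Of 26 listed genes of the naive state 14 fell and 7 rose, against 33% and 33.2% of all tested genes, so that the share that rose was below the background. Besides Klf2, the factors Foxp1 (-0.97 ± 0.05), Tcf7 (-0.79 ± 0.05) and Bach2 (-1.15 ± 0.09) fell. Il7r, the receptor for the survival cytokine IL-7, rose by 1.16 ± 0.11. At 48 h Il7r stood at 28.2 to 64 CPM, above all 24 h libraries and below the 233 to 350 CPM of naive TG cells. Of 32 early activation genes 15 rose and 9 fell, against 33.2% and 33% of all tested genes, so that the share that fell was near the background: Batf3 (2.11 ± 0.09), Ier3 (3.23 ± 0.21) and Batf (1.19 ± 0.10) rose, and Cd69 fell by 1.01 ± 0.12. In the interleukin-2 list 13 of 19 rose and 3 fell, with Il2 at 1.62 ± 0.23 and Il2ra at 0.74 ± 0.12. Of 15 regulatory T cell genes 8 rose and 3 fell. The 3 were Foxp3, Ikzf2 (-0.77 ± 0.11) and Gpr83 (-1.595 ± 0.12), and those that rose, Tnfrsf18 (1.42 ± 0.07), Ctla4, Tigit and Il2ra among them, are also made by activated T cells.

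Amino acid stress genes, the targets of ATF4, were led by the pseudokinase Trib3 (3.17 ± 0.18), the enzyme Cth (2.57 ± 0.16), the transcription factor Atf3 (1.02 ± 0.07) and Nupr1 (8.37 ± 0.41), with 19 of 32 higher and 7 lower. Nupr1 averaged below 5 CPM in every stimulated TG group, so the size of its change rests on low counts. One-carbon enzymes of that list, Shmt1 (-0.69 ± 0.05) and Mthfd1 (-0.64 ± 0.06), fell. Of 22 p53 targets 15 rose and 2 fell, against 33.2% and 33% of all tested genes, with Plk2 at 1.602 ± 0.08 and Pmaip1 at 1.52 ± 0.08. Of 24 NF-kB genes 12 fell and 6 rose, against 33% and 33.2% of all tested genes, with Rela at -0.63 ± 0.06 and Relb at -0.71 ± 0.07. Fas ligand (Fasl) rose by 1.25 ± 0.11 and Tnfrsf8, the CD30 receptor, by 2.60 ± 0.22, in a list of TNF family members with 10 of 20 higher and 3 lower.

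The change over time differed from that of WT cells in 858 of 12837 genes (6.68%) in a fit of all 48 stimulated libraries, with 285 changes higher and 573 lower in TG cells. It differed from that of KO cells in 3309 genes (25.8%), with 1371 higher and 1938 lower. These comparisons share the TG libraries, and 776 genes were called in both. The first count depended on the block and on the replicates included. It was 227 genes without the replicate block, 100 in replicates 3 and 4 alone and 747 in replicates 1 and 2 alone. Without TG replicate 2 it was 448 and without WT replicate 3 1094. For KO cells the counts were 2140 without the replicate block, 1145 in replicates 3 and 4 alone and 2988 in replicates 1 and 2 alone.

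Interferon-induced genes held the largest changes that were lower in TG cells. They rose strongly between 24 h and 48 h in WT and KO cells, by a median of 2.25 and 3.94 on the log2 scale, and by 0.16 in TG cells. The TG median was 0.675 under the weak and -0.11 under the very weak stimulus, although no gene passed the test of the difference between them. In TG cells 14 of the 31 listed genes rose and 9 fell, against 33.2% and 33% of all tested genes. The share that fell was near the background. The change was lower in TG than in WT cells for 27 of 31 genes and lower than in KO cells for all 31, and none was higher. Of all tested genes 6.68% differed from WT and 25.8% from KO cells in either direction. Irf7, the factor that amplifies the response, stood at 1.6, 3.4 and 7.88 CPM at 24 h in TG cells and at 1.39, 2.74 and 6.75 CPM at 48 h, with overlap. In WT cells it reached 97.4, 74.2, 5.35 and 36 CPM at 48 h in replicates 1 to 4 under the very weak stimulus and 104, 65.2, 14.4 and 43.3 CPM under the weak one. In KO cells it reached 338, 210, 12.6 and 12.2 CPM and 353, 224, 38.6 and 39.9 CPM.

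Irf7 at 48 h was thus highest in replicates 1 and 2 of WT and KO cells, while all 8 TG libraries stayed at or below 6.75 CPM. The part of the replicate split in the difference was not tested. The TG minus WT difference for Irf7 was -4.13 ± 0.79 (adjusted p = 0.00092) and -2.73 in replicates 3 and 4 alone (adjusted p = 0.0756). Mx1, an antiviral GTPase, differed by -3.96 ± 0.81 and Ifi44 by -4.55 ± 0.82 (adjusted p = 0.0005). Over the list, 30 of 31 genes were lower than in WT cells in replicates 1 and 2 alone, and 7 in replicates 3 and 4 alone, where the median difference was -1.22. Without the replicate block 14 genes were lower and without WT replicate 1 16 genes. Against KO cells 31 and 27 genes were lower in the 2 pairs of replicates. Within TG cells Isg15 rose by 2.21 ± 0.20, Oas3 by 1.99 ± 0.12, Usp18 by 1.51 ± 0.16 and Ifih1 by 0.97 ± 0.10. Ifit3 (-2.25 ± 0.27) and Rtp4 (-2.32 ± 0.39) fell.

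The guanylate-binding proteins and immunity-related GTPases, which interferon gamma also induces, fell in TG cells. Of 18 genes 13 fell and none rose (median -0.62), against 33% and 33.2% of all tested genes. The median was 0.38 in WT and 1.69 in KO cells. Gbp4 (-1.16 ± 0.12), Gbp5 (-0.94 ± 0.12), Ifi47 (-0.77 ± 0.10) and Gbp3 (-0.63 ± 0.09) had the smallest adjusted p. For 16 of 18 the change was lower than in WT cells and for all 18 lower than in KO cells. Of all tested genes 6.68% and 25.8% differed from WT and KO cells in either direction. Without the replicate block the count against WT cells was 4, and in replicates 3 and 4 alone it was 7. Gbp2 was abundant throughout, at 877 to 1706 CPM at 24 h and 480 to 1536 CPM at 48 h, with overlap.

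Promoter windows of these lists were searched for 2 elements. The gamma-activated sequence was found in 22.7% of interferon-response genes and 60% of GTPase genes with a window, against 8.37% of tested genes. The interferon-stimulated response element was searched on both strands as GAAA, any 2 bases, and GAAA again. It was found in 13 of 22 interferon-response genes with a promoter window (59.1%) and in 9 of 10 GTPase genes (90%). The share was 3.84% of tested genes with a window. Oas3, a synthase that senses double-stranded RNA, is shown because it is the member with the smallest adjusted p that holds a match (minus strand, chr5:120777610-120777909, match in capitals).
Oas3: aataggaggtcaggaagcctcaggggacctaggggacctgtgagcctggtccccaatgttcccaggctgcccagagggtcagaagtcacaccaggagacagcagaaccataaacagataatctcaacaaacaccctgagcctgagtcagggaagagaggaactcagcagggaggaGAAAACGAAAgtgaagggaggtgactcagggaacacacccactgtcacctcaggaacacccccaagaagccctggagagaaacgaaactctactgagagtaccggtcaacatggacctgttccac

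**Figure D4:**
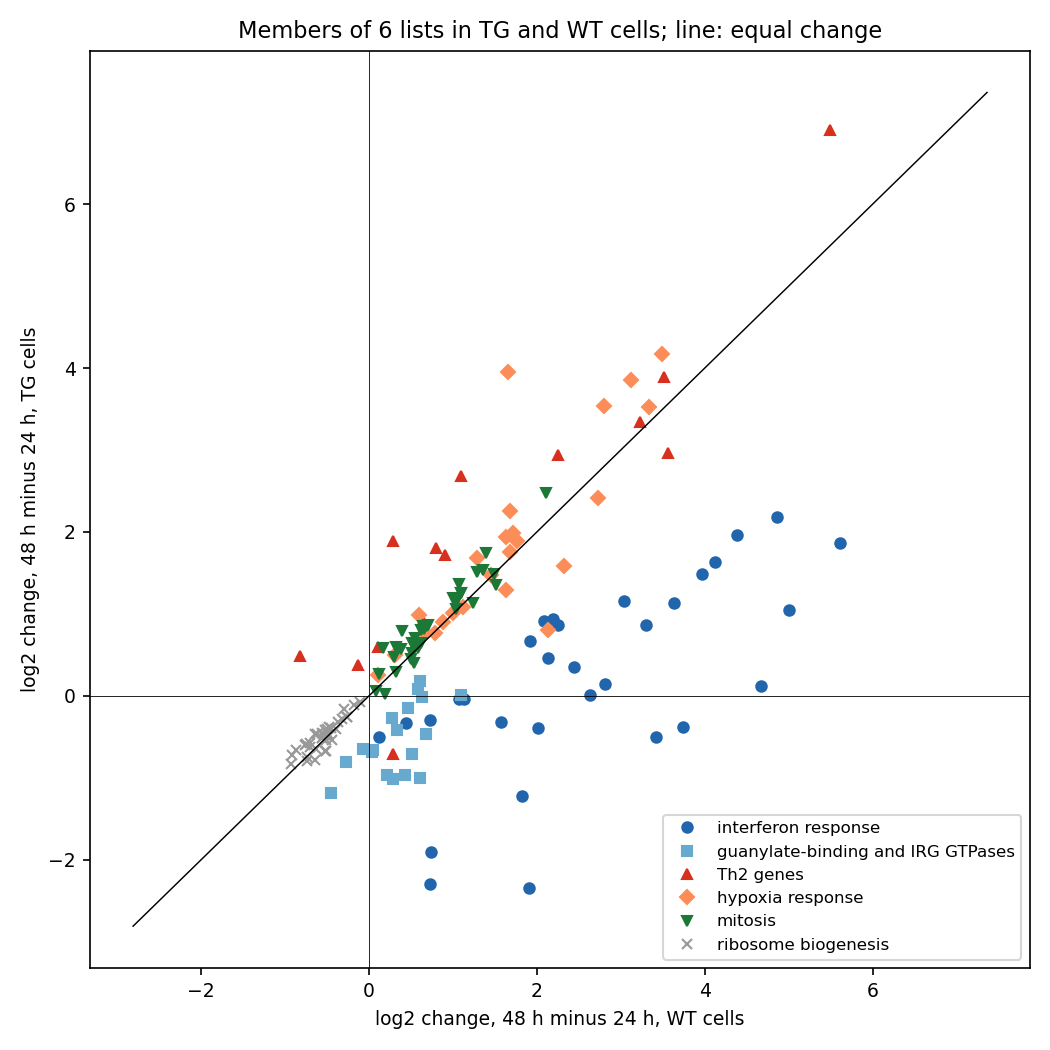
Log2 change from 24 h to 48 h in WT (x axis) and TG cells (y axis) for members of 6 gene lists, with 1 point per gene and the line of equal change. Interferon-response genes (blue circles) lie below the line, with a median of 2.25 in WT cells against 0.16 in TG cells in the TG fit. Mitosis and ribosome biogenesis genes lie near it.

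Inhba and Epas1 had the largest rises in excess of WT and of KO cells. Epas1 lay at 0.892, 1.61 and 4.64 CPM at 24 h and at 14, 30.5 and 53 CPM at 48 h in TG cells. In WT cells it reached between 0.9 and 5.77 CPM at 48 h. The difference in change was 2.29 ± 0.32 against WT (adjusted p = 2.4e-05) and 4.17 ± 0.34 against KO cells (adjusted p = 3.9e-11). Inhba differed by 2.87 ± 0.68 from WT (adjusted p = 0.0076), a call lost without the replicate block (adjusted p = 0.175), with DESeq2 (0.0504) and in replicates 3 and 4 alone (0.943). Cyp2s1 (2.04 ± 0.54), Lilr4b (1.93 ± 0.40), Akr1c18 (1.92 ± 0.31) and the calcium pump Atp2b4 (1.68 ± 0.40) followed, and each of these 4 calls was lost without the replicate block, with adjusted p between 0.0797 and 0.175. Against KO cells alone Kremen2 (3.15 ± 0.46), Efna5 (3.27 ± 0.77) and Selenbp1 (2.49 ± 0.54) also stood out.

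**Figure D5:**
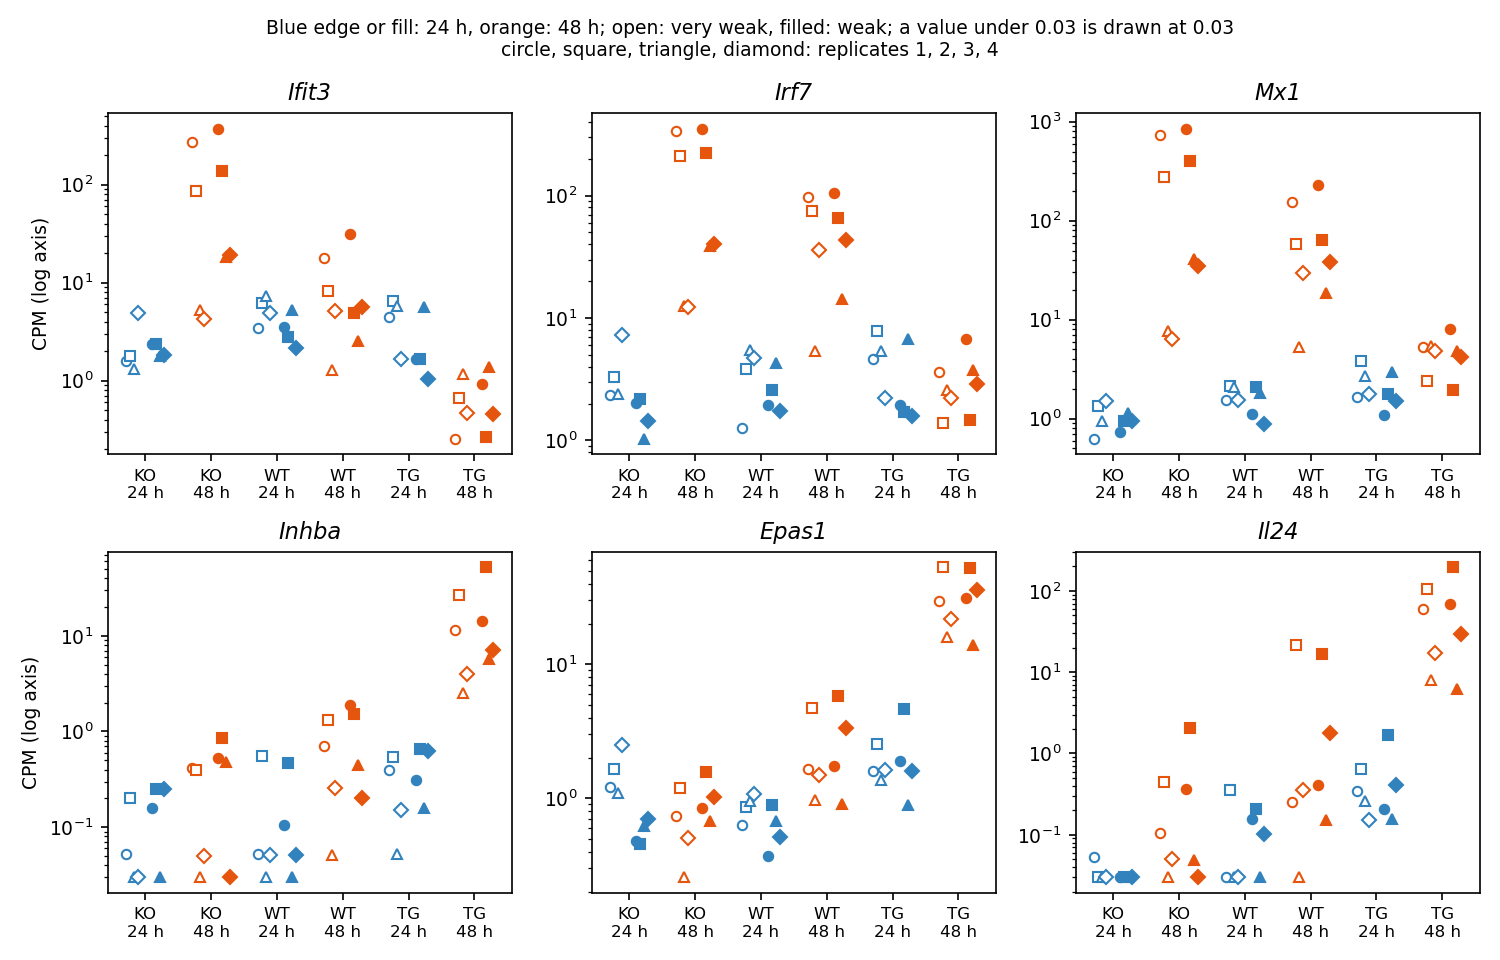
CPM (log axis) of 6 genes in KO, WT and TG cells at 24 h (blue) and 48 h (orange), with open symbols for the very weak stimulus, filled ones for the weak stimulus and shapes for replicates 1 to 4. Irf7 reaches 353 CPM in KO cells and at most 6.75 CPM in TG cells at 48 h, whereas Epas1 lies between 14 and 53 CPM in TG cells and at or below 5.77 CPM in WT cells.

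Published targets of the cluster did not move one way. Of 30 listed targets 15 rose and 11 fell (median 0.17), against 33.2% and 33% of all tested genes, so that the share that fell was near the background. The change was higher than in WT cells for 1 target (Rbl2) and lower for 2 (Phlpp1 and Rora), and higher than in KO cells for 3 and lower for 6. Of all tested genes 6.68% differed from WT and 25.8% from KO cells in either direction, so these counts do not set the targets apart. Phlpp1, an AKT phosphatase, fell by 0.58 ± 0.07 and its change was lower than in WT (adjusted p = 0.0057) and KO cells (adjusted p = 0.00022). Bcl2l11 fell by 0.44 ± 0.12. Tnfrsf21 fell by 1.55 ± 0.17, in WT and KO cells by 1.35 and 1.15. Rora (1.23 ± 0.11), Tet2 (0.73 ± 0.07), Ndfip1 (0.50 ± 0.04) and Cdkn1a rose, and E2f1 fell.

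Seed matches of 7 bases were counted in the longest annotated 3′ untranslated region (GENCODE M21) of 11612 tested genes. Of the 30 published targets 28 held at least 1 match, and Phlpp1 and Hbp1 held none in the region searched. Shown are 2 of the matches, as sites of 23 bases with the match in capitals, for genes described above.
Tnfrsf21: acactattctgtGCACTTTaaaa
Rora: ttgcggcgttacTTTGCACagct
The Rora site pairs with the seed of miR-19a-3p and miR-19b-3p and the Tnfrsf21 site with that of miR-17-5p and miR-20a-5p. The change over time hardly differed with the presence of a match. The median log2 change was -0.01 in 1663 genes with a match to the miR-17-5p seed, -0.03 in 1079 with one to miR-18a-5p, 0.02 in 1517 with one to miR-19a-3p, 0.03 in 856 with one to miR-92a-3p and 0.01 in 7757 with none. Genes with a match have longer untranslated regions, with a median of 2543 bases for the miR-17-5p seed against 797 bases for none. The median difference from KO cells was between -0.05 and -0.06 in each of the 4 sets and 0.00 in genes with none. The median difference from WT cells did not follow that order: it was 0.015, -0.011, 0.004 and -0.002 in the sets of miR-17-5p, miR-18a-5p, miR-19a-3p and miR-92a-3p, and -0.015 in genes with none.

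Intronic counts, which come mostly from unspliced transcripts, gave a second view of the same libraries. They ran from 2.83 to 4.11 M per library, and 4664 of 10761 genes changed (43.3%). In 14.1% of all gene and library values the intronic count was above the full count, so the full counts do not contain all intronic counts. Of 3484 genes called in full and in intronic counts, 3155 moved in the same direction. The full change differed from the intronic one in 3255 of 10194 genes (31.9%), and in 1905 without TG replicate 1. Bnip3l, a mitophagy receptor of the hypoxia list, rose by 2.28 ± 0.12 in full counts and by 0.12 in intronic counts (difference 2.19 ± 0.14, adjusted p = 1.6e-10). The full change was also above the intronic one for Ramp3 (by 2.71 ± 0.30), Itga7 (2.06 ± 0.43), Espn and Calcoco1 (each 1.82). Epas1 rose by 3.98 in full and by 4.30 in intronic counts. For Triobp (difference -1.77 ± 0.15), Card6 (-1.71 ± 0.23), the chemokine Ccl4 (-1.53 ± 0.34), Fam53b (-1.40) and Polr2l (-1.40) the full change was below the intronic one. Triobp rose in both. Card6 fell by 0.70 in full counts and rose by 1.04 in intronic ones. Fam53b fell by 1.16 and Polr2l by 0.70 in full counts, with intronic changes of 0.25 and 0.71 that did not pass. The class II genes H2-Ab1 (2.29 ± 0.19) and H2-Eb1 (-1.48 ± 0.13) had differences of opposite sign. Overlapping and antisense genes can share intronic reads, since the strand setting of the counting is not given in the sources used here.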

How the data were processed

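Gene counts were deposited by the authors as whole-number tables without normalization, per the file headers and values, 1 for full genes and 1 for introns. Per the submitters' processing notes, STAR 2.5.2a, FastQC 0.11.5, edgeR 3.24.3, R 3.5 and build mm10 were used. For the counting program and strand, nothing is stated in those notes or the labels. Samples were grouped by their titles. Members, gene lists and tests were chosen with earlier results of these data known. Tests used the quasi-likelihood method of edgeR 4.0.16 in R 4.3.3, after filterByExpr and TMM scaling, in a model of 4 groups (stimulus by time) with replicate number as a block (9 residual degrees of freedom). Genotypes were compared in a fit of 48 libraries with replicates nested in genotype (27 residual degrees of freedom). Calls are at a Benjamini-Hochberg adjusted p under 0.05. Levels are CPM on TMM factors over all 58 libraries; errors are SE of log2 changes. DESeq2 1.42.0 was an alternative. RefSeq gave a symbol for 23968 of 24028 gene IDs. The scripts were tested on simulated data. Named genes are the cluster's transcripts, the 15 largest rises and falls with at least 5 CPM in a group, up to 4 per list by adjusted p and 6 per direction for each difference. Other members, and those in the seed and promoter paragraphs, were chosen after their values were seen. Some members of the lists are counted but not reported by name here.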

Additional observations from a re-analysis of the deposited data

Results flagged for a closer look

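In 11 of 144 groups of 4 TG libraries tested, 1 library stood far from the other 3, where chance gives about 1 in 20. In replicate 3 at 24 h, Mir17hg was at 23.8 CPM under the very weak stimulus (the others 58.6 to 65.7) and at 22.1 CPM under the weak one (49.8 to 51). In the same weak 24 h library Ifi208 (6.51 CPM), Irf7 (6.72 CPM) and Ifit3 (5.67 CPM) were above the rest. At 48 h replicate 2 was high for Akr1c18 (42.8 CPM very weak, 21.6 CPM weak), Bcar1 (7.63 CPM, very weak) and Slc17a6 (21 CPM, weak). Xcl1 was at 35.7 CPM in weak 48 h replicate 3 and Triobp at 37.8 CPM, below the others, in weak 24 h replicate 4.

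By the interaction term of edgeR's fit, the change over time was larger in TG than in WT cells for Inhba (2.87), Epas1 (2.29), Cyp2s1 (2.04), Lilr4b (1.93), Akr1c18 (1.92) and Atp2b4 (1.68), on the log2 scale. It was lower for Ifi44 (-4.55), Rtp4 (-4.25), Irf7 (-4.13), Mx1 (-3.96), Oasl2 (-3.93) and Rsad2 (-3.75). Against KO cells it was larger for Epas1 (4.17), Inhba (3.60), Efna5 (3.27), Kremen2 (3.15), Lilr4b (2.71) and Selenbp1 (2.49). It was lower for Oasl2 (-7.26), Ifi44 (-7.12), Ifit3 (-6.87), Rtp4 (-6.69), Ifit3b (-6.55) and Mx1 (-6.39).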

How the results depend on the processing

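The count of genes changed between 24 h and 48 h, 8127, was 7456 without the replicate block, 8089 with DESeq2, 8397 without the filter on low counts and 6402 and 6742 in replicates 1 and 2 and in replicates 3 and 4 alone. It was 6700 with counts summed over the stimuli for each replicate number and time. Alternatives of single gene lists were chosen after seeing the data. Deviations from the group mean correlated at -0.04 to 0.635 (median 0.245) in 24 pairs of libraries with the same replicate number, 21 of them above 0.1, and at a median of -0.0881 in pairs with different numbers. Among pairs with the same number, r was 0.322 to 0.635 at the same time and -0.04 to 0.31 across times. The libraries of both stimuli at a time thus shared deviations that the block does not take up. The best match of all 16 libraries in another group had its own number, a hint from the data that the labels do not state. Leaving out a replicate gave 7198 to 7822, and a single library 7834 to 8138. At 2-fold the ranges were 1309 to 1542 and 1401 to 1506, under the weak stimulus 5514 to 6278 and 5974 to 6860, and under the very weak one 4824 to 5805 and 5260 to 6341. Replicates 1 and 2 alone gave 3575 under the very weak stimulus. The difference between stimuli stayed at 0 in every leave-out. TG minus WT calls numbered 227 without the replicate block, 100 in replicates 3 and 4 alone and 448 to 1094 with a replicate left out. TG minus KO calls numbered 2140, 1145 and 2543 to 3643. Interferon genes lower than in WT cells numbered 14, 7 and 16 to 30, and lower than in KO cells 30 to 31 with a replicate left out. Intronic calls ranged from 3501 to 4557 and full minus intronic calls from 1905 to 2871. Of 5826 alternative values of named genes 5759 kept direction and call, 58 lost a call, 5 gained one and 4 reversed, none of a called result. Those were Mir20a (-0.72 to 0.25 with a replicate left out, the latter without TG replicate 2, and 0.53 in replicates 3 and 4 alone) and Mir17hg (-0.59 to 0.11, likewise, and 0.41). The cause was not tested. The fit of 48 libraries was not run for single stimuli. At 24 h, few counts limit the genes with the largest rises.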
